A study of Mus musculus with 9 samples.

Results

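Monocytes that had entered the brain of mice with a neuromyelitis optica (NMO)-like lesion were compared with blood monocytes of normal mice, over all genes with enough counts to test. The 6 libraries were 3 of NMO brain monocytes (NMO_Br_mono) and 3 of normal blood monocytes (Nor_Bl_mono), out of 9 in the series, and they were chosen by their labels. All mice were adult female wild-type C57BL/6N animals, and each library was a pool of 5 mice sampled on day 1. The NMO mice had received IgG of NMO patients with human complement in the striatum, while the normal mice were untreated. The third group, blood monocytes of NMO mice (NMO_Bl_mono, 3 libraries), is used below only to set its values beside the other groups. Cells of every group were sorted as CD45+CD11b+P2ry12-Ly6C(high)Ly6G- cells. Brain cells were freed with Liberase at 37 °C and a Percoll gradient, and blood cells were taken from a Lymphoprep gradient. Tissue, lesion and cell preparation therefore changed together between the 2 groups and cannot be told apart. Since each library is a pool of cells, a smaller share of cells of a type and less RNA per cell also cannot be told apart.

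In neuromyelitis optica, antibodies against the water channel aquaporin-4 bind astrocytes and activate complement. Classical monocytes, which carry much Ly6C in the mouse, leave the blood through the chemokine receptor Ccr2 and its ligands Ccl2 and Ccl7, and in tissue they turn into macrophages that take up debris. Microglia are the resident macrophages of the brain, and the sort used the absence of their receptor P2ry12 to leave them out.

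The libraries held between 8726443 and 10416076 counts, and the ribosomal RNA symbol Rn45s took 29.9% to 43.6% of them. Of 23238 gene symbols, 8683 had at least 10 counts in at least 3 of the 6 libraries and were tested. Of these, 61 reached that count in no blood library and 189 in no brain library, so they were tested only because 1 group was high. Most genes called below are among them. Through brain alone these are Spp1, Ccl7, Mmp14, Sh3pxd2b, Hspb1, Ptprb, Pmepa1, Lcn2 and the 3 C1q chains. Through blood alone they are Nrgn, Klra8, Ppbp, Klra21, Gimap4 and Treml1. The filter had already picked the high group of these genes, and their adjusted p-values carry that limit. Levels are given as CPM, counts scaled by library size and TMM factor, for replicates 1, 2 and 3 in that order. A count of 3 in a library stood for about 0.297 CPM in brain and 0.337 CPM in blood on average, and it is used as the floor when a group was at 0. Libraries differed in how many genes they picked up. NMO_Br_mono replicate 2 had 39.4% of the tested genes at 3 counts or fewer, Nor_Bl_mono replicate 3 had 23.4%, and the others had 4.31% to 17.9%. The common dispersion was 2.12, so replicates varied far beyond counting error, and the tests have little power for moderate changes. Intervals and floors cover counting error only, since no molecular identifiers are described. Nothing in the labels says more about replicates than that they are separate pools, so p-values measure the spread between these pools.

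Against normal blood, brain monocytes were higher in Spp1, Ccl7, Ccl2, Mmp14, Tgfbi and the 3 C1q chains, among others, and lower in the transcription factor Irf8 and in genes such as Klra8, Gzmb, Ppbp and Nrgn. At an adjusted p under 0.05 (edgeR's quasi-likelihood test, Benjamini-Hochberg over the 8683 genes), 15 genes were higher in NMO_Br_mono (0.173% of those tested) and 8 were lower (0.0921%). At an unadjusted p under 0.05 with a change of 1.2-fold or more, 234 genes were higher (2.69%) and 339 lower (3.9%). The study states this threshold for NMO_Br_mono against NMO_Bl_mono, a different comparison. All 3 brain libraries were above all 3 blood libraries for 611 genes (7.04%) and below them for 918 (10.6%). The median log2 fold change of all tested genes was -0.07, with quartiles at -0.93 and 0.76. These counts of calls depend on single libraries. Without NMO_Br_mono replicate 2 the adjusted calls were 7 higher and 11 lower, and 10 of the 23 called genes stayed called. Without NMO_Br_mono replicate 1 edgeR called 0 higher and 0 lower genes, beside 190 and 680 at the unadjusted threshold, and without replicate 3 it called 0 higher and 2 lower, beside 212 and 364. In both of these fits 0 of the 23 genes stayed called. Leaving out blood replicate 1, 2 or 3 left 9, 4 or 10 higher and 2, 2 or 4 lower. All 23 genes kept their direction in each of these fits. For none of the 23 did the groups overlap, so leaving out a library could hardly turn a sign.

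**Figure D1:**
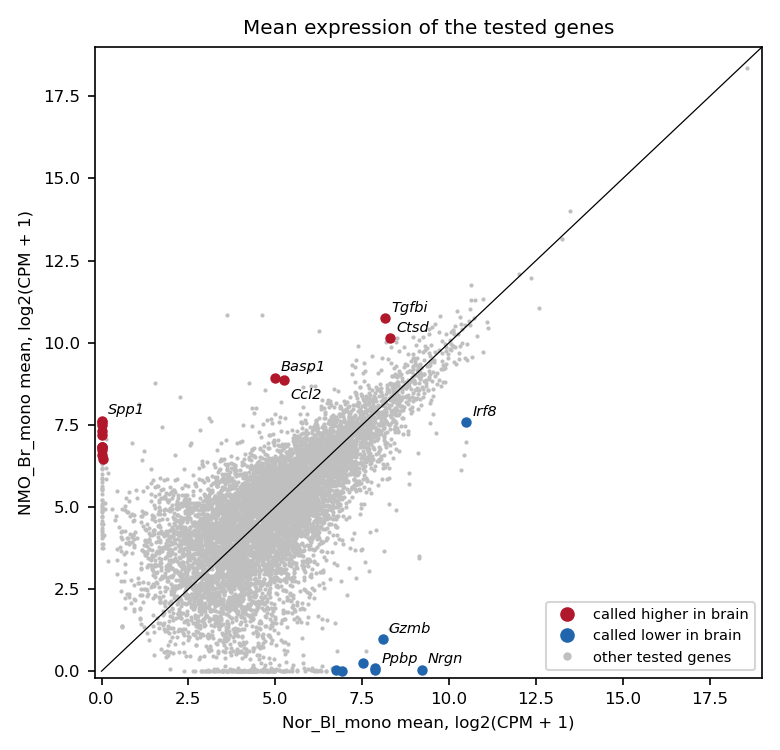
Mean level of each of the 8683 tested genes in NMO_Br_mono (y axis) against Nor_Bl_mono (x axis), both as log2(CPM + 1), each a mean of 3 libraries, with the line of equal levels. The 15 genes called higher and the 8 called lower at an adjusted p under 0.05 are coloured, and most of them lie on an axis because 1 group was at or near 0.

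Spp1, which encodes the secreted phosphoprotein osteopontin, had the smallest p of the higher genes. Its levels were 172, 142 and 277 CPM in the brain libraries and 0 CPM in every blood library. That is at least 584-fold higher against the floor (adjusted p = 0.0078, edgeR), and no library of the 2 groups overlapped. Ccl7, a chemoattractant of monocytes, was at 136, 137 and 203 CPM in brain and at 0 CPM in all 3 blood libraries, at least 472-fold higher (adjusted p = 0.0104). Ccl2, which binds the same receptor Ccr2, was present in both groups. Ccl2 was at 469, 455 and 467 CPM in brain against 28.2, 15.1 and 68.6 CPM in blood, a log2 fold change of 3.64 ± 0.573 (SE, adjusted p = 0.046). The brain libraries differed little from each other for Ccl2, with a mean of 464 ± 7.51 CPM (SD, n = 3).

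Next came genes of matrix, membrane and lysosome. Mmp14, a membrane-anchored metalloproteinase, was at 159, 88.2 and 291 CPM in brain and 0 CPM in blood (adjusted p = 0.0107), at least 533-fold higher. Sh3pxd2b, an adaptor of the podosomes with which cells break through matrix, was at 124, 139 and 171 CPM in brain and 0 CPM in blood, at least 430-fold higher with the same adjusted p of 0.0107. Both genes were thus read in each brain library and in no blood library. Tgfbi, an extracellular matrix protein, was already strong in blood and was at 1695, 1419.8 and 2022 CPM in brain against 150.02, 349.8 and 356 CPM. Its log2 fold change was 2.59 ± 0.388 (SE, adjusted p = 0.0414). Basp1, a membrane-associated signalling protein, was at 378, 567 and 522 CPM in brain and 39.9, 32.4 and 19.6 CPM in blood, with a log2 fold change of 3.997 ± 0.432 (SE, adjusted p = 0.0104). The lysosomal protease Ctsd had the smallest called change, from 315 ± 44.0 CPM to 1126 ± 144 CPM (SD, n = 3 each), a log2 fold change of 1.84 ± 0.282 (SE, adjusted p = 0.0414).

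C1qa, C1qb and C1qc encode the 3 chains of C1q, the recognition molecule of the classical complement pathway, and lie beside each other on chromosome 4 (GRCm38.p6: C1qb 136880126 to 136886200, C1qc 136889801 to 136892936, C1qa 136895916 to 136898844). All 3 were at 0 CPM in every blood library. In brain, C1qa was at 65.5, 175 and 93.0 CPM, C1qb at 23.9, 387 and 158 CPM, and C1qc at 89.4, 77.2 and 119 CPM. The fold was at least 330 for C1qa (adjusted p = 0.038), at least 563 for C1qb (adjusted p = 0.0414) and at least 282 for C1qc (adjusted p = 0.0414). C1qb varied most, being low in brain replicate 1 and high in replicate 2. None of the 3 stayed called in any fit that left out 1 of the 6 libraries, whether of brain or of blood. They are also on the list of microglia markers, whose levels are given further below.

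The remaining higher genes were Hspb1, Ptprb, Pmepa1 and Lcn2. Hspb1, a small heat-shock protein, was at 149, 74.8 and 110.3 CPM in brain and 0 CPM in blood (at least 331-fold, adjusted p = 0.0328). Pmepa1, a membrane protein induced by TGF-beta, was at 52.7, 168 and 94.1 CPM in brain and 0 CPM in blood (at least 311-fold, adjusted p = 0.0414). Ptprb is best known as a phosphatase of vascular endothelium, and it was at 58.9, 75.8 and 199.8 CPM in brain and 0 CPM in blood (at least 331-fold, adjusted p = 0.0414). Lcn2, an iron-scavenging protein of neutrophils and stressed tissue, was at 52.4, 138 and 68.5 CPM in brain. A single Lcn2 count was read in blood, giving a ratio of 2430 with a counting interval of 436 to 96000 (95%, exact; adjusted p = 0.046).

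**Figure D2:**
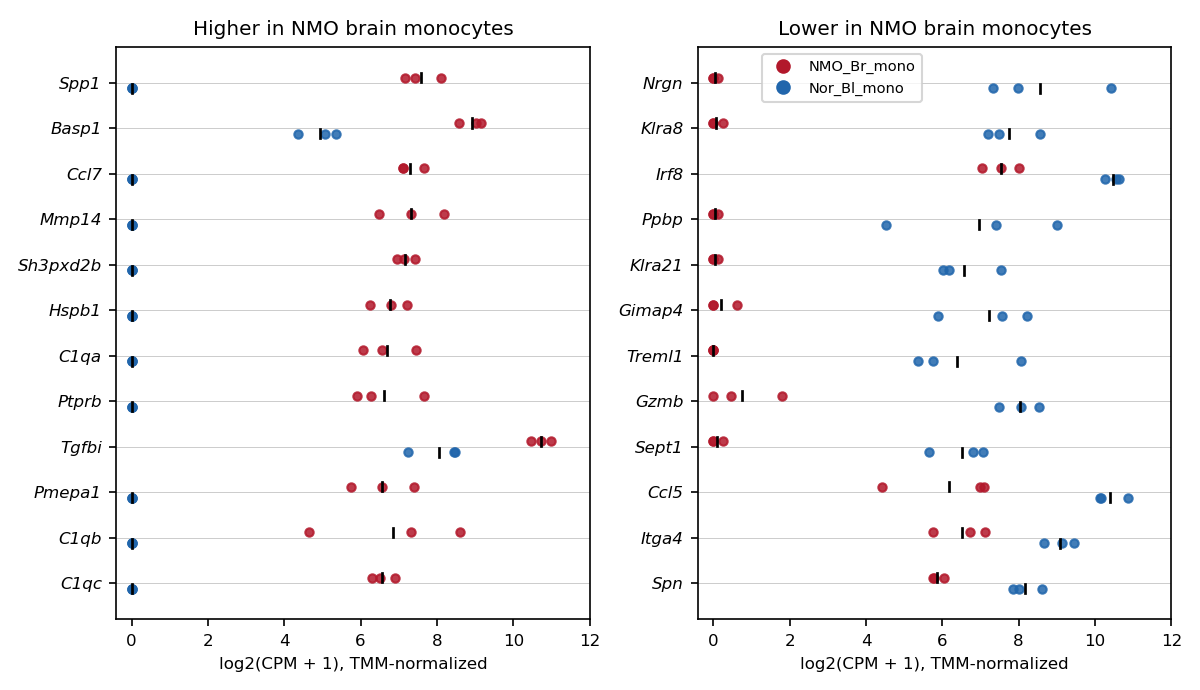
Levels as log2(CPM + 1) of the 12 genes of smallest p in each direction among those with no overlap between the groups and 50 CPM or more on average in the higher one, with 1 point per library and a bar at the mean of 3. Red points are NMO_Br_mono and blue points Nor_Bl_mono, and their separation follows from how the 24 genes were chosen; Sept1, Ccl5, Itga4 and Spn missed the adjusted threshold.

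The promoters of the neighbours C1qb and C1qc, both called higher, of Spp1, the higher gene of smallest p, and of the lower genes Nrgn and Ppbp are shown as the 250 bases before the transcript start that the table uses, on the gene's strand, from the RefSeq promoter table of GRCm38.p6. Capitals mark matches on either strand to any of 3 motifs. The first, GAGGAA, is a core bound by PU.1 and other ETS factors of myeloid cells. The next, TGANTCA, is a loose spelling of the AP-1 motif that lets any base stand in the middle. The last, of the GATA-binding factors that act in platelet precursors, is spelled AGATAA here. The windows lie at chr4:136886201-136886450 (minus strand), chr4:136892915-136893164 (minus), chr5:104434861-104435110 (plus), chr9:37552746-37552995 (minus) and chr5:90768268-90768517 (plus). The start used for C1qc lies inside the outer end of its listed gene span, so its window reaches a little into the gene.
C1qb: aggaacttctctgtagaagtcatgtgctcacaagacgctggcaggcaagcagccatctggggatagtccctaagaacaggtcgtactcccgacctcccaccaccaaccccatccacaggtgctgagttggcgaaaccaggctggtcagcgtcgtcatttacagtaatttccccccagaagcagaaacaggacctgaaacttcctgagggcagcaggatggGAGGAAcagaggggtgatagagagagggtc
C1qc: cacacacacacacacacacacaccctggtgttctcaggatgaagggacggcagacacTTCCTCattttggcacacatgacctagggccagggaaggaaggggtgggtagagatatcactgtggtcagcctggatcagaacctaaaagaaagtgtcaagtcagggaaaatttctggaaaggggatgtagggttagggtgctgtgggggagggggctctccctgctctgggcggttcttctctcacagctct
Spp1: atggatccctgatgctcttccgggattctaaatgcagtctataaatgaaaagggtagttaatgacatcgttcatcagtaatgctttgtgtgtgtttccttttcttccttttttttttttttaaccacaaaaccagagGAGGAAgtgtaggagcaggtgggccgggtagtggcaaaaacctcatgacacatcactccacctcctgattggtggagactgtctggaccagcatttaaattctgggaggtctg
Nrgn: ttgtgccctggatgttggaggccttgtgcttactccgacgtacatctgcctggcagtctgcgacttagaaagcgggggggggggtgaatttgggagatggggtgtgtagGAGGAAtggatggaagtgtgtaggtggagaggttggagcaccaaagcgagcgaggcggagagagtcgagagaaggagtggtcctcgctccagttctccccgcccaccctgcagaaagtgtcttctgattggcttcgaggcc
Ppbp: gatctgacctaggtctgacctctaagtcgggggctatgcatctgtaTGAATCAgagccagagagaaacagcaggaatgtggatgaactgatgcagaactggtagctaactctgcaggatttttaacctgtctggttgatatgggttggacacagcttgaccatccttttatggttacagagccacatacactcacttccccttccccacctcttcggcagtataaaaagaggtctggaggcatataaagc
The ETS letters occurred in the C1qb, C1qc, Spp1 and Nrgn windows, and in 23.3% of all 32851 promoters of the table over the same length. The loose AP-1 letters occurred in the Ppbp window, with an A in the middle, and in 6.75% of all promoters. The GATA letters occurred in none of the 5 windows, and in 9.99% of all promoters. These are matches of letters and not measured binding.

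Among the lower genes, Irf8 was the only one with more than 3 CPM in every brain library. Irf8 directs the development of monocytes and dendritic cells. It was at 256, 132 and 186 CPM in brain against 1575, 1232 and 1491 CPM in blood, a log2 fold change of -2.91 ± 0.34 (SE, adjusted p = 0.0107). The values of the 2 groups stood far apart, and the spread within blood was small at 1433 ± 179 CPM (SD, n = 3).

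The other 7 called lower genes were nearly absent from brain monocytes. Nrgn, a calmodulin-binding protein of neurons that platelets also carry, was at 1357, 159 and 253 CPM in blood, and 1 count was read in all 3 brain libraries. Its ratio was 15600 in favour of blood, with a counting interval of 2800 to 615000 (adjusted p = 0.0078). Ppbp, a platelet chemokine, was at 509, 169 and 21.8 CPM in blood, and 1 count was read in brain (adjusted p = 0.0234). Treml1, a platelet receptor, was at 266, 39.8 and 53.4 CPM in blood and 0 CPM in all brain libraries, at least 404-fold lower in brain (adjusted p = 0.0466). These 3 genes were all highest in blood replicate 1.

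Klra8 and Klra21 encode Ly49 receptors of NK cells, a family of near-identical genes whose reads the authors' counting of multiple alignments could share, so their split is uncertain. Klra8 was at 377, 178 and 145 CPM in blood, with 2 counts in brain (adjusted p = 0.0078). Klra21 was at 185, 63.7 and 70.7 CPM in blood, with 1 count in brain (adjusted p = 0.0328). Gzmb, the cytotoxic protease granzyme B, was at 177, 265 and 369.6 CPM in blood and at 0, 0.366 and 2.50 CPM in brain (log2 fold change -8.12 ± 1.3, SE, adjusted p = 0.0466). Gimap4, a GTPase of lymphocytes, was at 298, 58.6 and 189 CPM in blood and at 0, 0.548 and 0 CPM in brain (log2 fold change -9.81 ± 1.51, SE, adjusted p = 0.0414). In each of these 4 genes every blood library stood well above every brain library. Next by p, and not called, were Sept1 (adjusted p = 0.0501), Ccl5 (0.0585), and the adhesion molecules Itga4 and Spn (0.0653 each).

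All 12 inflammation genes the study names for brain monocytes were tested. The study's comparison was of NMO_Br_mono with NMO_Bl_mono. It shares the brain libraries with the one here, so these genes are no independent evidence of direction. Ccl2, Ccl7, Spp1, C1qa and C1qc passed the adjusted threshold, and 10 passed the unadjusted one, all higher. Of all tested genes, 0.173% and 2.69% were higher at these thresholds. The median log2 fold change was 3.43, against -0.07 over all genes, but 4 of the 12 (Ccl7, Spp1, C1qa and C1qc) passed the count filter only through the brain libraries, so the median is a description only. Their summed level was 2955 to 3289 CPM in the brain libraries and 245 to 358 CPM in blood. Il1b, the cytokine interleukin-1 beta, was at 1541, 1455 and 930.2 CPM in brain against 106, 118 and 0.0978 CPM in blood, with a log2 fold change of 4.13 ± 1.4 (SE, unadjusted p = 0.0153). Blood replicate 3, with almost no Il1b, stood apart from the other 2. Osm, a cytokine of the interleukin-6 family, was at 215, 138 and 218 CPM against 33.1, 43.9 and 23.9 CPM (unadjusted p = 0.000843, adjusted p = 0.114). Il18 and Tnfrsf11a, which is read here for the symbol Tnfsf11a that the study prints, passed neither threshold.

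The study also names 6 scavenger receptors, again with the same brain libraries. None passed the adjusted threshold, and Cd68, Cd14, Fcrls and Lrp1 were higher at the unadjusted one. Cd14, a co-receptor for bacterial lipopolysaccharide, was at 689.7, 657 and 658 CPM in brain and 189.9, 273 and 92.4 CPM in blood (unadjusted p = 0.00133, adjusted p = 0.141). Fcrls, a receptor-like protein of microglia, was at 50.9, 74.5 and 48.9 CPM in brain and 0 CPM in blood (at least 172-fold, unadjusted p = 0.000887). Mrc1 (unadjusted p = 0.266) and the overlapping Clec7a (unadjusted p = 0.336) were not called. Over the wider list of 19 tested uptake receptors, 0 passed the adjusted threshold with edgeR, while 8 were higher and 0 lower at the unadjusted one. Its median log2 fold change was 1.51. Of the 19, 3 (Fcrls, Mertk and Gas6) passed the count filter only through the brain libraries, and all 3 are among the 8. The count and the median are therefore a description only. Of all tested genes, 2.69% were higher at the unadjusted threshold.

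Chemokine ligands went both ways. Of 14 tested, Ccl2 and Ccl7 passed the adjusted threshold, and at the unadjusted one 5 were higher and 3 lower. Of all tested genes, 0.173% were higher at the adjusted threshold, and 2.69% were higher and 3.9% lower at the unadjusted one. Ccl7, Ccl22 and Cxcl3, which are among the 5, were tested only through the brain libraries. Cxcl9, among the 3 lower, was tested only through the blood libraries. Ccl5, a chemokine of T cells and NK cells, fell at the unadjusted threshold from 1860.4, 1137 and 1128 CPM in blood to 20.5, 125 and 137 CPM in brain. Ccl6 was higher at the unadjusted threshold, at 1780.2, 864 and 1005 CPM in brain against 625, 663 and 749.5 CPM in blood. Of 17 chemokine and adhesion receptors, 0 were called by edgeR at the adjusted threshold, and at the unadjusted one 3 were higher and 1 was lower. Ccr2, the receptor for Ccl2 and Ccl7, was at 1253, 755 and 1096 CPM in brain and 256, 391 and 226 CPM in blood, with a log2 fold change of 1.83 ± 0.342 (SE, adjusted p = 0.0728). Of 18 cytokines and receptors, 0 passed the adjusted threshold with edgeR, and Il1b, Il1rn, Osm, Il6st and Csf2rb were higher and Ifngr1 lower at the unadjusted one. Ifngr1, the ligand-binding chain of the interferon-gamma receptor, was at 320.3, 315 and 221 CPM against 622, 805 and 688 CPM.

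Feedback regulators of NF-kB were uneven over libraries. Of 15 tested, 0 passed the adjusted threshold with edgeR, and at the unadjusted one 4 were lower (Nfkbia, Nfkbiz, Tnfaip3 and Tnip1) and Ier3 was higher. At that unadjusted threshold 3.9% of all tested genes were lower and 2.69% higher. Nfkbia, the inhibitor that holds NF-kB in the cytoplasm, was at 1599.7, 3002 and 1725 CPM in brain and 8933, 7821 and 1663 CPM in blood. Blood replicate 3 was as low as the brain libraries, so the groups overlapped. The same library was low for Nfkbiz, at 101 CPM against 938 and 1331 CPM in the other 2. Of the 17 immediate-early genes, none was called at either threshold and their median log2 fold change was -0.09. Jun was at 1472, 1113 and 899 CPM in brain and 1494, 240.5 and 104 CPM in blood, which overlap.

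The lists of complement, lysosome and matrix genes are taken next, and they were chosen with earlier results known. Of all tested genes, 0.173% were higher at the adjusted threshold, and 2.69% were higher and 3.9% lower at the unadjusted one. Of 13 complement genes, the C1q chains passed the adjusted threshold, and at the unadjusted one 6 were higher and 1 lower. Of the 13, 3 were tested only through the brain libraries and 1 only through the blood libraries. C3ar1, a receptor for the complement fragment C3a, was at 212, 117 and 196 CPM in brain and 13.4, 5.35 and 38.4 CPM in blood (unadjusted p = 0.00266). Cd93, a membrane protein first described as a receptor for C1q, was at 424, 389 and 409 CPM against 55.8, 109 and 44.0 CPM (adjusted p = 0.0626). Neither gene overlapped between the groups. Of 20 genes of lipid handling and lysosome, Spp1 and Ctsd passed the adjusted threshold, and 10 were higher and 0 lower at the unadjusted one, with a median log2 fold change of 1.73. Lgmn, the protease legumain, was at 186, 226 and 462 CPM in brain against 22.8, 40.2 and 42.5 CPM in blood (adjusted p = 0.0626). Of 14 matrix genes, Tgfbi and Mmp14 passed the adjusted threshold and 8 were higher at the unadjusted one. Vcan, a proteoglycan, was at 1043, 439 and 231 CPM in brain and 108, 49.2 and 33.8 CPM in blood (adjusted p = 0.109).

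Genes of glycolysis and heat shock were higher in part, where 2.69% of all tested genes were higher at the unadjusted threshold. Of 19 genes of glycolysis and hypoxia, 0 passed the adjusted threshold with edgeR and 6 passed the unadjusted one, all higher. All 19 had a positive log2 fold change, and the median was 1.71, against -0.07 over all tested genes. Pkm, which encodes pyruvate kinase, was at 795, 790.3 and 706 CPM in brain against 262, 179 and 219 CPM in blood (adjusted p = 0.0519). Slc2a1, the glucose transporter Glut1, was at 211, 219 and 352 CPM against 42.9, 38.6 and 83.5 CPM (adjusted p = 0.134). Of 13 heat-shock chaperones, Hspb1 passed the adjusted threshold, and 7 were higher at the unadjusted one, with all 13 positive. Hspa1a was at 3972, 1009.8 and 548 CPM in brain and 49.5, 21.6 and 0 CPM in blood, highest in brain replicate 1. Hspa1a and Hspa1b are near-identical copies, so the split of reads between them is uncertain. Brain and blood cells were released from tissue in different ways, and the part of this in the heat-shock levels was not tested.

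Arg1, the arginase of alternatively activated and suppressor myeloid cells, was at 316, 181 and 819 CPM in brain and at 5.66, 0.101 and 0 CPM in blood, a log2 fold change of 7.88 ± 1.66 (SE, unadjusted p = 0.000941, adjusted p = 0.117). It was 1 of 5 genes higher at the unadjusted threshold among 12 on the alternative activation list, where 0 passed the adjusted threshold with edgeR. S100a8, an alarmin of neutrophils and monocytes, was at 143, 781 and 377 CPM in brain against 27.3, 7.57 and 19.3 CPM in blood (adjusted p = 0.0501). Tnf, which the study also follows, was at 35.9, 90.0 and 41.6 CPM in brain and 314, 275 and 0 CPM in blood, so the groups overlapped (unadjusted p = 0.276). Of 11 MHC class II genes, H2-Aa, H2-Ab1, Cd74 and Ifi30 were higher at the unadjusted threshold and none at the adjusted one. At the unadjusted one 2.69% of all tested genes were higher. H2-Aa was at 1075, 2281 and 923 CPM in brain and 827, 785 and 554 CPM in blood. Of 21 interferon-response genes, 0 passed either threshold, with a median log2 fold change of 0.70, and of 8 ribosomal protein genes 0 passed either, with a median of 0.33.

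**Figure D3:**
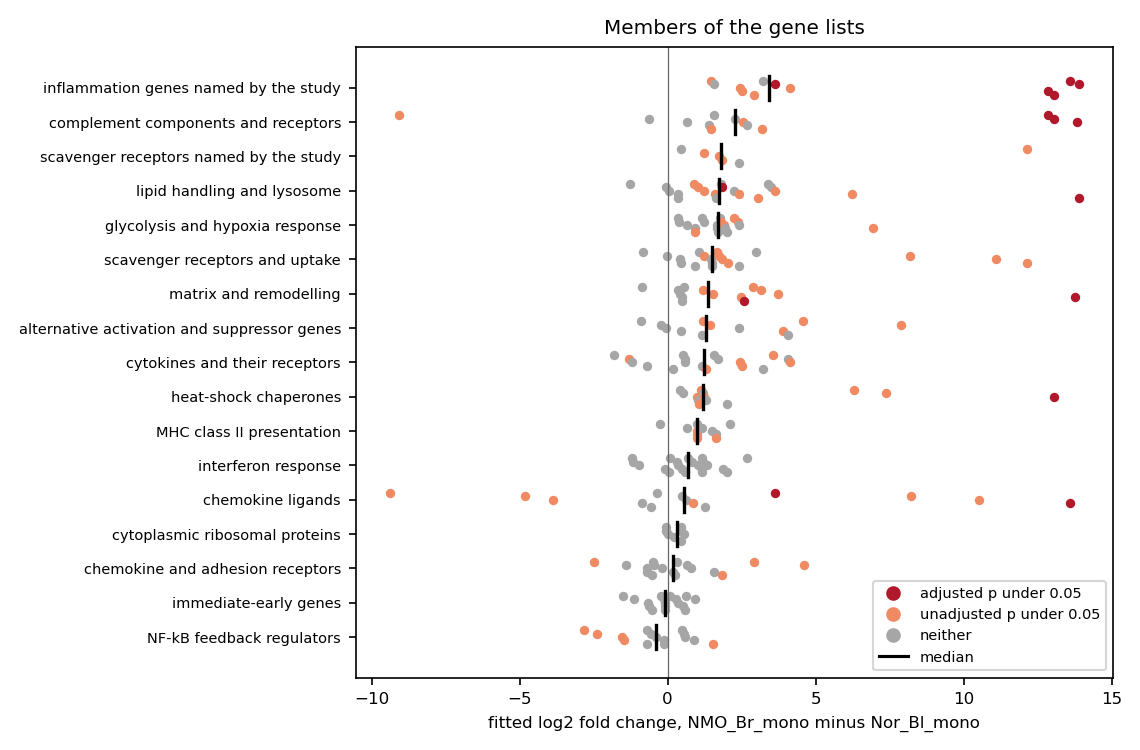
Fitted log2 fold change, NMO_Br_mono minus Nor_Bl_mono, of every tested member of each list (points) with its median (bar). Most list medians lie right of 0, as those of inflammation genes (3.43) and complement (2.26), while NF-kB regulators lie at -0.39; points near 13 are genes at 0 in blood, whose fitted value depends on the prior count.

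The RNA of the sorting genes was compared next. The gate was set on surface protein, so RNA levels of the sorted cells do not check it. Itgam, which encodes CD11b, was at 630.1, 399 and 503 CPM in brain and 287, 374 and 316 CPM in blood (unadjusted p = 0.0659). Ptprc, which encodes CD45, fell at the unadjusted threshold to 975, 448 and 705 CPM from 1481, 1808 and 1100.5 CPM. Ly6c2, of the Ly6C antigen, fell at the same threshold to 423, 57.1 and 193 CPM from 885, 891 and 443 CPM, and brain replicate 2 was lowest. Ly6c1, the other Ly6C gene, was at 89.1, 5.67 and 304 CPM in brain and 52.7, 46.7 and 45.6 CPM in blood, which overlap (log2 fold change 1.46 with edgeR, unadjusted p = 0.196), and the sign turned without brain replicate 3. P2ry12, the receptor used to leave out microglia, was at 22.9, 67.0 and 9.63 CPM in brain and 41.7, 33.4 and 0.881 CPM in blood (unadjusted p = 0.811), and its sign turned without brain replicate 2 or without blood replicate 3. Ly6g was not analysed here.

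Markers of other cell types differed between the groups as well, and their part in the results was not tested. Of the microglia list, 12 of 16 markers were tested, 6 of them only through the brain libraries, and its summed level was 1165 to 1669 CPM in brain against 137 to 400.0 CPM in blood. Most of the blood sum was Cx3cr1, which the study names as shared by monocytes and microglia. Cx3cr1 was at 525, 285 and 326 CPM in brain and 309, 242 and 107 CPM in blood, which overlap. At the adjusted threshold the C1q chains were higher, and at the unadjusted one 8 were higher, with Fcrls, Olfml3, Sparc and P2ry13 among them. Over all tested genes 0.173% and 2.69% were higher at these thresholds. Tmem119, Sall1, Gpr34 and Slc2a5 did not reach the count minimum in 3 libraries and were not tested, but they were read in brain. Tmem119 was at 75.7, 0 and 20.3 CPM in brain, and Slc2a5 at 23.3, 52.5 and 0 CPM. Sall1 and Gpr34 were lower on average, and each of these genes was at 0 CPM in every normal blood library. Neutrophil markers summed to 482 to 1907 CPM in brain and 81.4 to 292 CPM in blood. Lcn2 was called, and S100a8 and S100a9 were higher at the unadjusted threshold. Retnlg, another neutrophil gene, ran the other way, with 0 CPM in brain and 119.8, 81.0 and 36.2 CPM in blood, at least 266-fold lower. Endothelial markers summed to 146, 469 and 1994 CPM over the brain libraries in rising order, and to 51.1 to 246 CPM in blood, with none of 7 called. Flt1, a receptor of endothelial cells, was at 84.6, 0 and 536 CPM in brain, and so was read in the library where Ptprb was highest, brain replicate 3, and not in replicate 2. Mog, Olig1, Olig2, Sox10, Aqp4, Gjb6 and Gad1 were at 0 in all 6 libraries, but other members of their lists were read. Oligodendrocyte markers summed to 42.4 to 56.8 CPM in brain and 11.2 to 111 CPM in blood, and Mal was higher at the unadjusted threshold. Astrocyte markers summed to 0 to 75.7 CPM in brain and 38.7 to 169 CPM in blood. Neuron markers summed to 0 to 93.9 CPM in brain and 0 to 9.80 CPM in blood.

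Markers of NK cells, platelets, red cells and T cells summed higher in each blood library than in any brain library. Of all tested genes, 0.0921% were lower in brain at the adjusted threshold and 3.9% at the unadjusted one. The 14 NK cell markers, all tested, all had a negative log2 fold change, with 2 called lower at the adjusted threshold and 7 at the unadjusted one. Of these 14 markers, 2 were tested only through the blood libraries. They summed to 64.9 to 545 CPM in brain and 2814 to 3410 CPM in blood. Nkg7, a granule protein of cytotoxic cells, was at 16.4, 59.0 and 23.9 CPM in brain and 397, 275 and 245 CPM in blood (adjusted p = 0.0669). All 10 tested platelet markers were negative too, 3 called lower at the adjusted threshold and 7 at the unadjusted one, and 6 of them were tested only through the blood libraries. They summed to 24.9 to 38.3 CPM in brain and 552 to 3456 CPM in blood. Red cell markers summed to 1.19 to 406 CPM in brain and 947 to 4169 CPM in blood, with 3 of 5 lower at the unadjusted threshold. T cell markers summed to 12.4 to 73.2 CPM in brain and 132 to 220.1 CPM in blood, with 6 tested and 1 lower at the unadjusted threshold. All 8 called lower genes except Irf8 and Gimap4 are genes known from NK cells or platelets. Classical monocyte markers overlapped in sum, at 3574 to 7978 CPM in brain and 4500 to 6395 CPM in blood. Single members went both ways among the 12 tested, with a median log2 fold change of -0.79. At the unadjusted threshold Ccr2 and Vcan were higher and Ly6c2 and Plac8 lower, where 2.69% of all tested genes were higher.

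**Figure D4:**
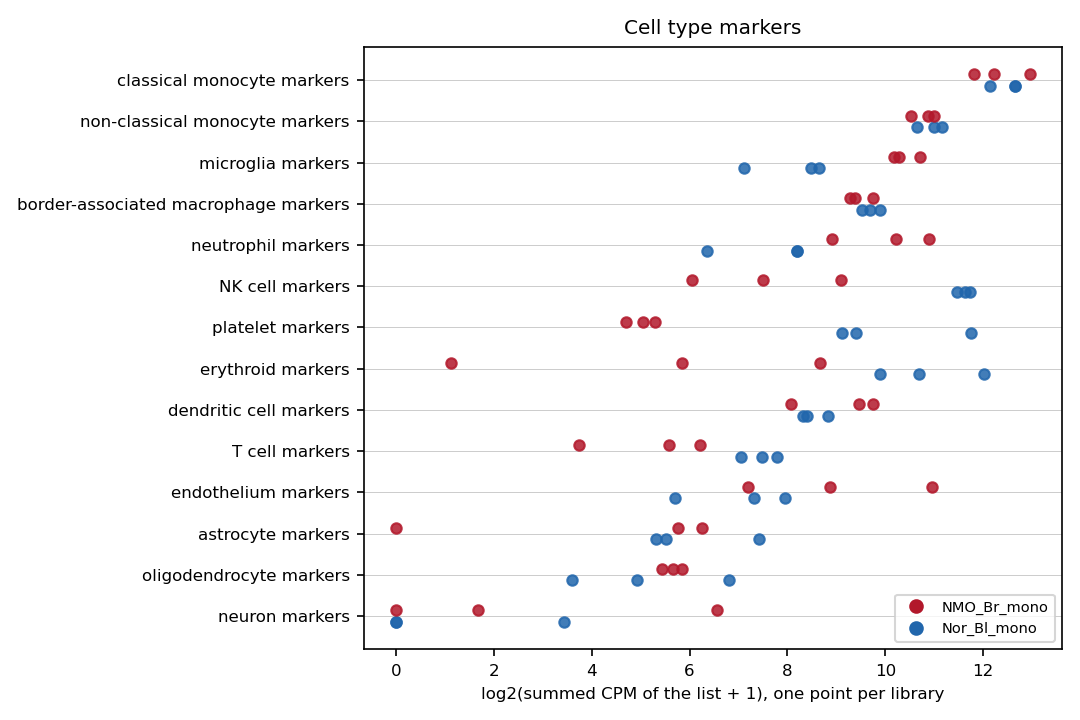
Summed CPM of each marker list, as log2(sum + 1), with 1 point per library, red for NMO_Br_mono and blue for Nor_Bl_mono. Sums of monocyte markers overlap between the groups, although single classical markers went both ways. Microglia and neutrophil markers lie higher in brain, and NK cell, platelet and red cell markers lie higher in blood.

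The NMO blood group shares the lesion with NMO brain and the tissue and preparation with normal blood, and its levels in a single fit of all 9 libraries are set beside the called genes here. Its replicate 3 had 55.7% of the tested genes at 3 counts or fewer. In NMO_Bl_mono, Irf8 was at 1222, 1375 and 1847 CPM. Its log2 fold change was 0.05 for NMO blood against normal blood (adjusted p = 1) and -2.96 for brain minus NMO blood (adjusted p = 0.00353), which share the NMO_Bl_mono libraries. Tgfbi was at 302, 402 and 357 CPM in NMO_Bl_mono, and the log2 fold changes were 0.31 and 2.27 (adjusted p = 1 and 0.033). Klra8, at 271, 282 and 347 CPM in NMO_Bl_mono, and Nrgn, at 977, 267 and 272 CPM, were likewise called lower in brain than in NMO blood (adjusted p = 0.0014 and 0.00247). Ccl7 was at 0 CPM in all 3 NMO blood libraries as in normal blood (brain minus NMO blood, adjusted p = 0.0417). Spp1 was at 10.4, 0 and 0 CPM and Mmp14 at 4.28, 4.18 and 0 CPM in NMO blood, and neither passed against brain in that fit, with log2 fold changes for brain minus NMO blood of 5.82 and 5.99 (adjusted p = 0.874 and 0.517).

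**Figure D5:**
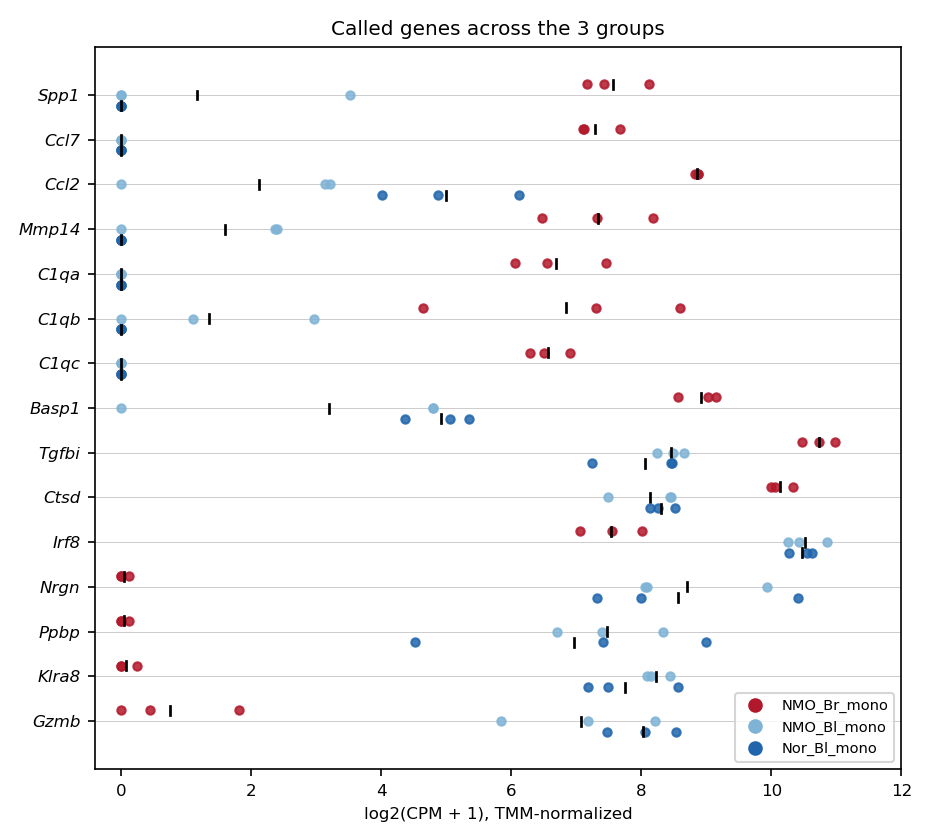
Levels as log2(CPM + 1) of 15 called genes in NMO_Br_mono (red), NMO_Bl_mono (light blue) and Nor_Bl_mono (dark blue), 1 point per library and a bar at the mean of 3. In all 15 genes the brain points lie outside the range of the normal blood points; NMO blood replicate 3 was at 0 CPM for Ccl2 and Basp1.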

How the data were processed

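The deposited files hold raw read counts per gene symbol of QuantSeq 3ʹ libraries. The authors aligned reads with Bowtie2 and counted unique and multiple alignments with bedtools. Per the labels' processing notes the build was mm10, and versions are not given in the sources used here. Rn45s counts were kept in the library sizes. For 35 repeated symbols only the entry with the highest total stayed in.

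Genes with 10 or more counts in at least 3 of the 6 libraries were tested with edgeR 4.0.16 (glmQLFit, glmQLFTest, TMM factors, group as the only term, R 4.3.3). SEs are the log2 fold change divided by the root of F. Alternatives used DESeq2 1.42.0 and limma 3.58.1. Named genes were up to 12 each way of smallest p whose groups did not overlap and whose higher group averaged 50 CPM or more, those the study names, and from each list the called members (at either threshold) and the 4 highest. The members and lists were chosen with earlier results of these data known. The scripts were tested on simulated data. Some results are not reported here.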

Additional observations from a re-analysis of the deposited data

How the results depend on the processing

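Of the 114 genes followed across the alternatives, 5 changed sign in at least 1. With limma-voom with sample quality weights P2ry12 had a log2 fold change of -0.43. Leaving out libraries moved P2ry12 between -1.20 and 0.92, with -0.18 without Nor_Bl_mono replicate 3 and -0.64 without NMO_Br_mono replicate 2. It moved Cxcl2 between -1.72 and 0.15, S100a4 between -0.27 and 0.64, Ly6c1 between -0.029 and 2.03, and Tgfb1 down to -0.20 without NMO_Br_mono replicate 2. Without both NMO_Br_mono replicate 2 and Nor_Bl_mono replicate 3, chosen after seeing the data, Tgfb1 was at -0.79, and edgeR called 0 genes at an adjusted p under 0.05, beside 312 higher and 466 lower at the unadjusted threshold.

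The counts of calls moved more, and the cause was not tested except where the number of genes or libraries changed. Higher and lower adjusted calls were 109 and 78 with no filter (13369 genes, with 414 higher at the unadjusted threshold), 23 and 14 with 10 counts in every library (3667 genes, with 194 lower at the unadjusted threshold), 120 and 181 with DESeq2, and 2 and 21 with all 9 libraries in a single fit, where 132 genes were higher at the unadjusted threshold. With limma-voom 4 were lower, and 408 were higher at the unadjusted threshold. Same-numbered deviations correlated at 0.034, -0.00324 and -0.00604, and those of unlike number at -0.0312 to 0.0252. With replicates this variable, such values cannot decide whether replicate numbers pair the samples. With the replicate block the adjusted calls were 40 and 26. Leaving out 1 library at a time gave 0 to 10 higher and 0 to 11 lower at the adjusted threshold, and 184 to 253 higher and 195 to 680 lower at the unadjusted one. RLE factors, library sizes alone and a fit without Rn45s stayed within 1.5 times of every count. The 23 called genes kept their direction wherever tested, which says little, since their groups did not overlap. All 23 stayed called with RLE factors, library sizes alone, no filter, the replicate block and DESeq2. Only 9 stayed called with all 9 libraries and 12 with limma-voom. With 10 counts in every library only 5 of the 23 were tested, and these 5 stayed called. The median log2 fold change of all genes went from -0.07 to -0.39 with the block and -0.35 with limma-voom.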
